A study of Mus musculus with 18 samples.

Results

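The 9 genes described here are Ptger3, Mycl, Bank1, Mmp28, Ccdc162, Pecam1, Klk10, Nhs and Slc5a10, those whose RNA fell most in APP microglia, out of 24421 genes counted. They were chosen by measured values, the log2 fold change between APP and WT microglia, so everything from that contrast is given as a description and without a test. Of 13116 genes tested in microglia, 9 had a fall at least as large as that of Slc5a10, and they are these 9. None of them had to be set aside for a mean under 1 CPM (reads scaled to the size of the library) or for overlapping libraries.

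The data were bulk RNA-seq counts of microglia and astrocytes, each sorted by flow cytometry from whole mouse brain after enzymatic dissociation and myelin removal. The mice were untreated C57BL/6j, either WT (4 mice) or APP-NLGF (5 mice), here called APP. In APP-NLGF mice the mouse App gene itself carries a humanised and mutated amyloid sequence, so no foreign promoter drives it. Each of the 9 mice gave 1 microglia and 1 astrocyte library, 18 in all, and all 18 library names carry C3WT. WT replicate 1 was female and the other 3 WT mice were male, while APP replicate 1 was male and the other 4 APP mice were female. Genotype and sex were therefore unbalanced, and sex was a covariate in each fit. Not given in the sources used here were the age of the mice and the antibodies of the sort.

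Total counts ranged from 8834866 to 18363154 in microglia and from 10569776 to 22522407 in astrocytes. The summed level of 8 microglial markers was 22163 to 37065 CPM in microglia libraries and 112 to 280.4 CPM in astrocyte libraries. The summed level of 8 astrocyte markers was 22816 to 43704 CPM in astrocyte libraries and 474 to 1765 CPM in microglia libraries. WT replicates 1 and 4 stood apart in both cell types by low levels of vascular markers: 29.3 and 33.0 CPM of summed endothelial markers in their microglia, against 71.9 and 83.2 CPM in WT replicates 2 and 3. In their astrocyte libraries the same sum was 1223 and 1109 CPM against 3602 and 2833 CPM. Where leaving them out moved a value of the 9 genes by over 1.5 times, that value is given too.

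Microglia, the resident macrophages of the brain, keep a homeostatic program in healthy tissue and lose much of it around amyloid plaques, where they take up a disease-associated program. The 9 genes are not a single pathway. Ptger3 encodes EP3, a receptor for prostaglandin E2 that couples to inhibitory G proteins. Bank1 encodes a scaffold with ankyrin repeats, known from B cells, that links the kinase LYN to IP3 receptors. Pecam1 (CD31) is an adhesion receptor of endothelium, platelets and leukocytes with inhibitory ITIM signalling. Mycl encodes L-MYC, a MYC-family transcription factor that pairs with MAX. Mmp28 (epilysin) and Klk10 encode secreted proteases or protease-like proteins. Nhs, mutated in Nance-Horan syndrome, acts on actin remodelling, and Slc5a10 encodes the sodium-coupled sugar transporter SGLT5. Ccdc162 encodes a coiled-coil protein of little known function.

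The genes lie apart on the genome (RefSeq, GRCm38.p6). Ptger3 (chromosome 3, 157566821 to 157644758) and Bank1 (chromosome 3, 136053363 to 136326141) share a chromosome without being neighbours. Mmp28 (83440768 to 83463040), Pecam1 (106654213 to 106715281) and Slc5a10 (61672782 to 61720817) are on chromosome 11. Mycl is on chromosome 4 (122995588 to 123002490), Ccdc162 on chromosome 10 (41538844 to 41716520), Klk10 on chromosome 7 (43781054 to 43785410) and Nhs on chromosome X (161833290 to 162159441). Promoter sequences were matched by symbol for 7 of the 9 genes, with 2 start sites for Slc5a10, giving 8 promoters. Ccdc162 and Pecam1 had no entry.

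The promoters were searched on both strands, from 250 bases before to 50 bases after the start, for short motifs of factors known from macrophages. These were GAGGAA (ETS factors such as PU.1), CACGTG (E-box), TGANTCA (AP-1), GAAANNGAA (IRF) and CAGACA (SMAD). Only 3 of the 7 genes held any match, 4 matches in all. Over 32851 RefSeq promoters of the same length, the shares that hold each motif were 28.3%, 7.15%, 7.81%, 8.56% and 21.0%, in the order above. The 3 promoters with matches are shown because they carry all 4 of them, and that of Ptger3 because its RNA fell most. The 250 bases before the start are printed 5′ to 3′ on the gene's strand, with matches in capitals.
Ptger3 (chr3:157566626-157566875, plus strand): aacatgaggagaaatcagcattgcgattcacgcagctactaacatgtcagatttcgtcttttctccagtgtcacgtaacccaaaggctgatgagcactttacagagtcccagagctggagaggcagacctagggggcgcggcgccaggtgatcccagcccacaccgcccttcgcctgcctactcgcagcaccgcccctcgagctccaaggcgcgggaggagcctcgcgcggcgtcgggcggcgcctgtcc
Bank1 (chr3:136326067-136326316, minus strand): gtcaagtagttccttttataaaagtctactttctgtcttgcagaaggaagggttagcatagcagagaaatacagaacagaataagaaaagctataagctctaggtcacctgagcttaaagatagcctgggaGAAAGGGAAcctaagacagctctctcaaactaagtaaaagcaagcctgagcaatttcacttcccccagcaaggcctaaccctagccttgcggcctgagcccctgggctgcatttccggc
Klk10 (chr7:43780804-43781053, plus strand): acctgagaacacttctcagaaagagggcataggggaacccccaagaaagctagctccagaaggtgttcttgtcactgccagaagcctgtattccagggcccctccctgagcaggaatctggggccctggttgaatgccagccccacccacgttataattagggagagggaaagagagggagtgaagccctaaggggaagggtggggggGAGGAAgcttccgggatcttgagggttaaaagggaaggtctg
Slc5a10, second of its 2 start sites (chr11:61719986-61720235, minus strand): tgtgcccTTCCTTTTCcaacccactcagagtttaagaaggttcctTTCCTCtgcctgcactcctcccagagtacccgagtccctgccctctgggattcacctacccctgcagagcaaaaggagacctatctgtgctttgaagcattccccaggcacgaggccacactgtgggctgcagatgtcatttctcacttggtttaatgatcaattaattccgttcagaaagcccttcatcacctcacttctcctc
The capitals in Bank1 mark an IRF motif whose first printed base is at position -119 from the start. Those in Klk10 mark an ETS motif at -42. In Slc5a10 the capitals mark an IRF motif at -243 and an ETS motif at -205, both on the opposite strand. No motif was shared by all of the promoters found, and the Ptger3, Mycl, Mmp28 and Nhs promoters held none of the letters searched. A match is only these letters, and no binding was measured.

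In microglia the levels of the receptor and signalling genes were low to moderate in WT and far lower in APP. Ptger3 was at 3.79, 2.33, 3.78 and 5.36 CPM in WT replicates 1 to 4. In APP replicates 1 to 5 it was at 0.334, 0.544, 0.467, 0.303 and 0.414 CPM, from 4 to 8 reads a library. The lowest WT library was 4.29 times the highest APP library. Ptger3 had the largest fall of all genes tested, -3.23 on the log2 scale (SE 0.40), from 3.82 ± 1.24 CPM (SD, n = 4) to 0.412 ± 0.0981 CPM (n = 5). In bulk samples such as these, fewer cells that hold an RNA and less RNA per cell cannot be told apart.

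Bank1 was the most abundant of the 9 genes in WT microglia, at 100.5, 66.4, 62.3 and 89.1 CPM. In APP microglia it was at 13.1, 12.7, 16.9, 5.15 and 9.34 CPM. All APP libraries lay well below the WT ones, and APP replicate 4 was lowest. The log2 fold change was -2.87 (SE 0.29), which left 14.4% of the WT mean.

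Pecam1 was at 46.2, 29.8, 34.6 and 45.1 CPM in WT microglia. It was at 7.11, 6.53, 9.22, 5.45 and 6.86 CPM in APP microglia, so the groups were separated and the APP libraries close together. The log2 fold change was -2.56 (SE 0.19), and 18.1% of the WT mean remained. Pecam1 was highest in WT replicates 1 and 4. There the 12 endothelial markers summed to 29.3 and 33.0 CPM, against 71.9 and 83.2 CPM in WT replicates 2 and 3. Single markers differed. Cldn5 was at 0.0 and 0.179 CPM and Tie1 at 0.0 and 0.0 CPM in WT replicates 1 and 4. In WT replicates 2 and 3 Cldn5 was at 5.31 and 6.38 CPM and Tie1 at 1.13 and 1.51 CPM. Cdh5 was at 3.79 and 2.77 CPM in WT replicates 1 and 4, and at 4.34 and 5.41 CPM in WT replicates 2 and 3. Reads of some endothelial markers were thus present in every WT library, while Tie1 had none in WT replicates 1 and 4. The part of endothelial RNA in the Pecam1 values was not tested.

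Mycl, the only transcription factor gene among the 9, was at 22.4, 17.9, 16.2 and 22.2 CPM in WT microglia. In APP it was at 2.42, 1.63, 2.39, 2.95 and 2.84 CPM. The lowest WT library was 5.49 times the highest APP library, the widest gap of the 9 genes. Mycl fell by 3.09 on the log2 scale (SE 0.20), to 12.4% of the WT mean.

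The secreted proteins came next. Mmp28 was at 12.1, 10.8, 12 and 14.2 CPM in WT microglia and at 2.01, 1.94, 2.22, 1.59 and 1.89 CPM in APP microglia. It was the steadiest of the 9 genes between mice, with a coefficient of variation of 11.6% in WT and 11.8% in APP. Its log2 fold change was -2.64 (SE 0.19). Klk10 was at 2.27, 1.53, 1.30 and 2.77 CPM in the WT libraries and at 0.418, 0.467, 0.175, 0.227 and 0.414 CPM in the APP ones, from 12 to 31 and from 3 to 7 reads a library. Its log2 fold change of -2.55 had the largest SE of the 9, 0.47.

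Nhs was at 5.63, 1.93, 3.14 and 3.84 CPM in WT microglia and at 0.585, 0.933, 0.934, 0.908 and 0.828 CPM in APP microglia. The groups did not overlap, but the lowest WT library was only 2.07 times the highest APP library. Its log2 fold change was -2.52 (SE 0.32), and -2.09 without sex in the model, for a gene on the X chromosome in groups of unequal sex. Slc5a10 was at 8.88, 6.60, 6.70 and 8.66 CPM in the WT libraries and at 1.09, 1.71, 2.74, 0.984 and 1.36 CPM in the APP ones, with APP replicate 3 the highest. It had a log2 fold change of -2.51 (SE 0.33). Ccdc162 was at 13.8, 8.45, 9.08 and 13.6 CPM in the WT libraries and at 2.42, 2.49, 2.63, 0.681 and 1.30 CPM in the APP ones. APP replicates 4 and 5 were the low ones for Ccdc162, and the log2 fold change was -2.58 (SE 0.37).

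**Figure D1:**
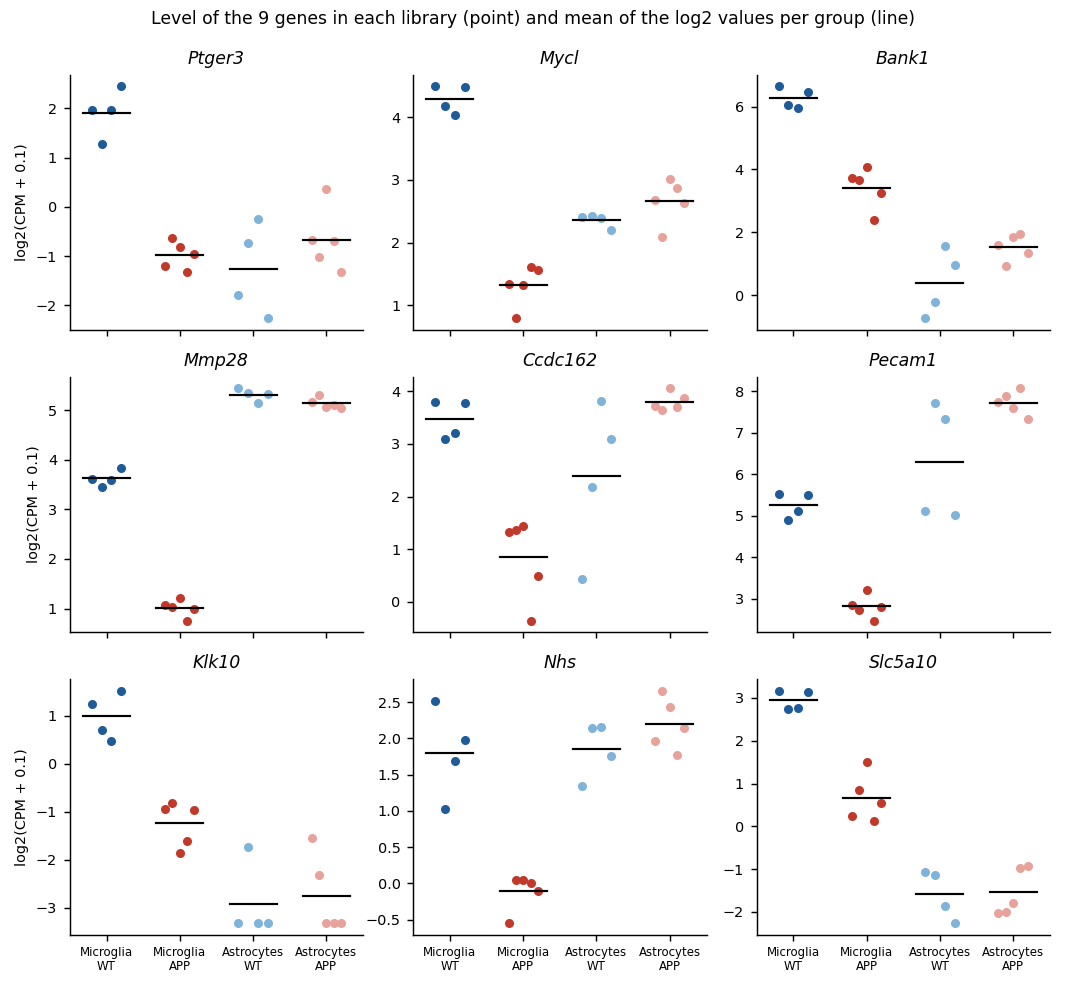
Levels of the 9 genes as log2(CPM + 0.1) on the vertical axis of each panel, in the 4 groups on the horizontal axis, with 1 point a library and a line at the mean of the log2 values. In microglia all 5 APP libraries lie below all 4 WT libraries for each of the 9 genes, while in astrocytes the genotypes overlap for each of them.

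The median log2 fold change of the 9 genes was -2.58, against 0.01 over all 13116 genes tested. Over all of those genes, 38.3% were called at an adjusted p under 0.05, 19.1% higher and 19.2% lower in APP. All APP libraries lay below all WT libraries for 19.2% of them. Since the choice fixed both the direction and the separation of the 9 genes, nothing is read from their count. The genes just outside the set were Gpr165 (-2.48, SE 0.27), Abcg3 (-2.41, SE 0.22) and Sema4b (-2.40, SE 0.13), so the values run on without a gap from Slc5a10 at -2.51. Gpr165 went from 76.4 ± 18.3 to 15.5 ± 5.48 CPM and Sema4b from 94.9 ± 8.87 to 20.5 ± 4.12 CPM.

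Within WT microglia the mice differed in a shared way. On the scale of the microglia fit all 9 genes were higher in both WT replicates 1 and 4 than in WT replicates 2 and 3. Scaled over both cell types 7 of the 9 kept that order, all but Ptger3 and Mmp28. Over all genes tested 25.7% had that order on the first scale, and so did 11 of the 22 homeostatic genes listed below. Bank1 averaged 94.8 CPM in replicates 1 and 4 and 64.4 CPM in replicates 2 and 3, and Nhs averaged 4.74 and 2.53 CPM. This is a description, since the same libraries chose the genes, and WT replicate 1 carries much weight as the only female WT mouse. Replicates 1 and 4 were also low in the summed astrocyte markers (642 and 795 CPM against 1765 and 1259 CPM) and mural markers (24.8 and 24.8 CPM against 187 and 167 CPM). The part of these in the levels of the 9 genes was not tested.

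With both of these libraries left out, the median of the 9 fold changes was -2.29. Ccdc162 was then at -1.85 and Klk10 at -1.74, the smallest of the 9. Leaving out 1 library at a time kept the median between -2.80 and -2.47. No alternative turned the sign of a value it gave in microglia, which the choice of the genes by their fall in these libraries favours. The filter of 50 counts in 4 libraries gave no value for Ptger3, Klk10 and Nhs.

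After the mean of each genotype was taken off, the 9 genes still varied together in part over the 9 microglia libraries. Of 36 pairs, 29 had a Pearson r above 0, with a median of 0.383 and a range from -0.475 to 0.968. Bank1 and Ccdc162 were most alike (0.968), followed by Bank1 with Pecam1 (0.823) and Mmp28 with Pecam1 (0.802). Both Bank1 and Ccdc162 were lowest in APP replicate 4 and high in WT replicates 1 and 4. Mycl went its own way: its r was -0.475 with Ccdc162, -0.331 with Bank1 and -0.300 with Ptger3. These values describe 9 libraries that share depth and composition.

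RNA of other cells in the microglia libraries was measured beside these falls. For endothelium, 9 of 12 markers had reads in every WT microglia library and 12 of 12 in every APP one. Their sum was 29.3 to 83.2 CPM in WT and 131 to 181 CPM in APP, which was mostly Flt1, a VEGF receptor, at 1.84 to 11.2 CPM in WT and 91.8 to 144 CPM in APP. Without Flt1 the sum was 27.5 to 71.9 CPM in WT and 37.3 to 46.6 CPM in APP, and these ranges overlapped. Mural markers, also of vessels, did not overlap and summed to 24.8 to 187 CPM in WT and 228 to 286 CPM in APP, with 8 of 8 read in every library. The part of these in the 9 values was not tested. B-cell markers, relevant to Bank1, summed to 10.3 to 16.3 CPM in WT and 4.93 to 9.93 CPM in APP, with 4 of 7 and 2 of 7 read in every library. Most of that was Cd79b at 8.93 to 14.6 CPM in WT, while the B-cell transcription factor gene Pax5 did not exceed 0.357 CPM in any microglia library. Bank1 was at 62.3 CPM or more in WT microglia. Both Bank1 and the B-cell sum were lower in APP, and the part of B cells in the Bank1 values was not tested.

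Markers of border macrophages, cells that a microglia sort can hold, summed to 1706 to 1819 CPM in WT and 327 to 610 CPM in APP, all 8 of 8 with reads in every library. Platelet markers, relevant to Pecam1, summed to 14.2 to 21.3 CPM in WT and 4.92 to 7.47 CPM in APP, with 2 of 5 and 3 of 5 read in every library. These falls ran beside those of the 9 genes, and their part in them was not tested. Markers of monocytes and neutrophils did not fall. They summed to 435 to 490 CPM in WT and 480 to 662 CPM in APP, ranges that overlapped, with 4 of 7 and 3 of 7 read in every library.

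The astrocyte libraries were not used to choose the genes, so the same contrast could be tested there. It asks whether these genes also change in another glial cell of the same mice. No gene of the set was called between APP and WT astrocytes by edgeR. Of the 9, 7 passed the filter on low counts, 0 were called and 2 had an unadjusted p under 0.05, Bank1 and Ccdc162. DESeq2 called 3 (Bank1, Ccdc162 and Pecam1, each higher in APP) and limma voom 0. Over all 14957 genes tested in astrocytes 25.6% were called, 12.1% higher and 13.5% lower in APP. The median of the 7 was 0.70, against 0.01 over all genes, and 6 of the 7 estimates were above 0.

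Ccdc162 was at 1.25, 4.46, 14 and 8.39 CPM in WT astrocytes and at 13, 12.4, 16.5, 12.9 and 14.5 CPM in APP astrocytes. WT replicate 3 lay inside the APP range and the other WT libraries below it. Its log2 fold change was 1.78 (SE 0.69, adjusted p = 0.0832), the largest of the 7. DESeq2 called it (adjusted p = 0.00165), and edgeR called it without WT replicate 3 (2.15, adjusted p = 0.0233) or without APP replicate 1 (3.49, adjusted p = 0.0156). It was 0.52 without WT replicate 1 (adjusted p = 0.592) and 0.48 without both WT replicates 1 and 4, so the size rests on these libraries. Without APP replicate 1 the contrast rests on the females, with a lone WT library taken to vary like the others.

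Bank1 in astrocytes was at 0.501, 0.752, 2.84 and 1.85 CPM in the WT libraries and at 2.90, 1.79, 3.47, 3.71 and 2.44 CPM in the APP ones, so the genotypes overlapped. The difference was 1.42 (SE 0.60, adjusted p = 0.107). DESeq2 called it (1.50, adjusted p = 0.0277), and leaving out WT replicate 3 gave 1.81 (adjusted p = 0.0344). It was 0.65 without WT replicate 1 (adjusted p = 0.616), 0.66 without WT replicates 1 and 4, and 2.49 without APP replicate 1 (adjusted p = 0.0705). Microglial markers in the astrocyte libraries, which Bank1 could come with, summed to 112 to 132 CPM in WT and 218 to 280.4 CPM in APP. Their part in the Bank1 values was not tested.

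Pecam1 in WT astrocytes was at 34.8, 212, 162 and 32.4 CPM, and in APP astrocytes at 212, 236, 192, 268 and 161 CPM. The low libraries were WT replicates 1 and 4, those with few endothelial transcripts. Pecam1 was 2.85% and 2.92% of the endothelial marker sum in these 2 libraries and 5.71% to 7.05% in the other 7. The difference of 1.64 (SE 0.73) was not called (adjusted p = 0.122), and DESeq2 placed it just past the threshold (1.66, adjusted p = 0.0491). It was 0.64 without WT replicate 1 (adjusted p = 0.666), 0.17 without both low libraries, and 2.63 without APP replicate 1 (adjusted p = 0.0722). With the endothelial level in the model it was 0.32 (SE 0.12, adjusted p = 0.129).

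The other 4 genes tested in astrocytes were not called by edgeR or DESeq2. Mycl was at 5.20, 5.27, 5.15 and 4.47 CPM in the WT libraries and 6.32, 4.17, 7.99, 7.17 and 6.07 CPM in the APP ones, a difference of 0.32 (SE 0.23, adjusted p = 0.318). Mmp28 was at 43.2, 40.8, 35.1 and 39.9 CPM in the WT libraries and 35.8, 39.7, 33.4, 34.5 and 32.8 CPM in the APP ones. It was the only estimate below 0, at -0.21 (SE 0.10, adjusted p = 0.156). Nhs, at 3.60 ± 0.922 CPM in WT (SD, n = 4) and 4.59 ± 1.17 CPM in APP (n = 5), differed by 0.44 (SE 0.33, adjusted p = 0.326), an estimate that turned to -0.091 without WT replicate 1. Ptger3 ranged from 0.109 to 0.743 CPM in WT and from 0.299 to 1.19 CPM in APP, a difference of 0.70 (SE 0.75, adjusted p = 0.489) from 1 to 25 reads a library. It was 0.069 without WT replicate 1 and -0.24 without WT replicates 1 and 4.

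Klk10 and Slc5a10 were removed by the filter in astrocytes. Slc5a10 had 1 to 10 reads a library, 0.109 to 0.376 CPM in WT and 0.145 to 0.428 CPM in APP. Klk10 had 0 reads in 6 of the 9 astrocyte libraries, which allows levels up to 0.128 to 0.327 CPM (3 reads, counting error only), and at most 5 reads elsewhere. A difference between the genotypes was not detectable for them at this depth.

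**Figure D2:**
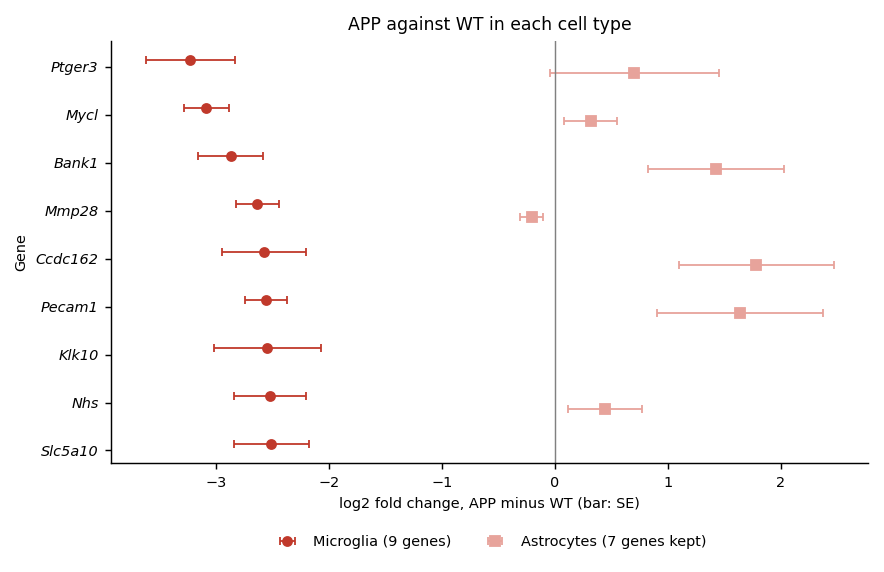
Log2 fold changes of APP against WT (horizontal axis, bars are SE) of each gene (vertical axis) in microglia (circles) and astrocytes (squares). The microglial values run from -3.23 to -2.51 by the choice of the genes, while the 7 astrocyte values run from -0.21 to 1.78 with wide errors for Ptger3, Bank1, Ccdc162 and Pecam1.

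**Figure D3:**
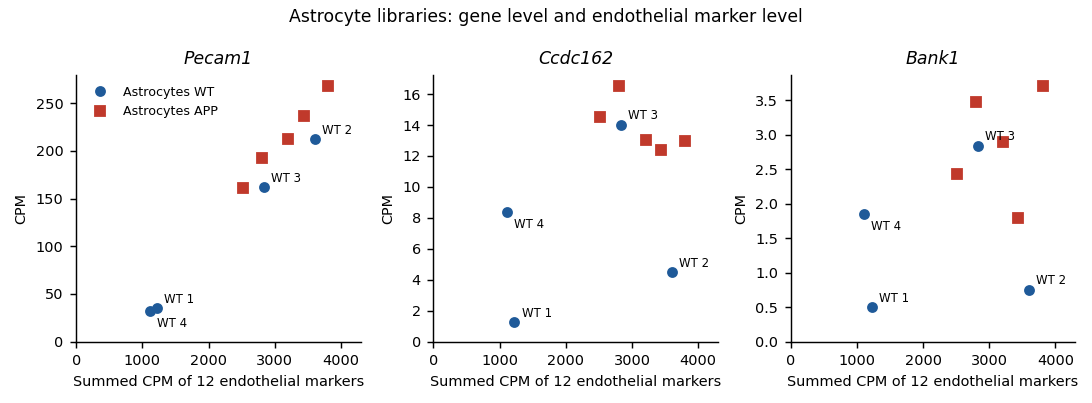
CPM of Pecam1, Ccdc162 and Bank1 (vertical axes) against the summed CPM of 12 endothelial markers (horizontal axes) in the 9 astrocyte libraries, with WT replicates named. Pecam1 is lowest in WT replicates 1 and 4, which have the lowest endothelial sums, while Ccdc162 and Bank1 are lowest in WT replicates 1 and 2.

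A second question is where these genes are expressed, read from the microglia and astrocyte libraries of the same mice. The microglia libraries chose the genes, which favours high values in WT and low values in APP microglia. The differences between cell types are therefore given as a description, with no p-value. Their SE come from fits with sex as covariate that do not pair the libraries of a mouse. Over all 14114 genes kept in WT mice 39.3% were called higher and 40.6% lower in microglia. Of the 9 genes 5 fell among the former (Ptger3, Mycl, Bank1, Klk10 and Slc5a10) and 1 among the latter (Mmp28), and nothing is read from that count.

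Of the 9 genes Bank1 had the largest difference in WT mice, 5.95 above astrocytes on the log2 scale (SE 0.48). Klk10 was higher by 5.09 (SE 0.75) and Slc5a10 by 5.06 (SE 0.30). These 2 genes were near 0 reads in astrocytes and passed the filter on low counts only through microglia. The Klk10 value rests on 4 reads in 1 astrocyte library and 0 in the other 3, and was 7.93 without the mouse that gave those reads. Ptger3 was higher in microglia by 3.37 (SE 0.48) and Mycl by 2.19 (SE 0.14). Mmp28 went the other way, at -1.46 (SE 0.11), so WT astrocytes held more of it than WT microglia.

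Ccdc162, Pecam1 and Nhs had differences of less than 2 SE between the cell types of WT mice, and single mice moved them in both directions. Ccdc162 differed by 1.07 (SE 0.60), by 0.49 without WT replicate 1 and by 1.76 without WT replicate 3. Pecam1 differed by -1.13 (SE 0.63), by -0.52 without WT replicate 2 and by -1.61 without WT replicate 1. Nhs differed by 0.19 (SE 0.36), and by -0.16 without WT replicate 1.

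In APP mice 5 of the 7 genes kept by the filter lay below the astrocyte level, a difference that includes the fall by which they were chosen. Over all 15016 genes kept, 40.8% were called higher and 43.8% lower in microglia, against 2 and 5 of these 7, and nothing is read from that count either. Mycl, above astrocytes in WT mice, was at -1.17 against them in APP mice (SE 0.21). Pecam1 was lower in microglia at -4.72 (SE 0.18), Mmp28 at -3.98 (SE 0.11), Ccdc162 at -2.67 (SE 0.27) and Nhs at -2.26 (SE 0.22). Bank1 and Slc5a10 still stood above astrocytes, by 2.20 (SE 0.30) and 2.75 (SE 0.39), and Slc5a10 passed the filter only through microglia.

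**Figure D4:**
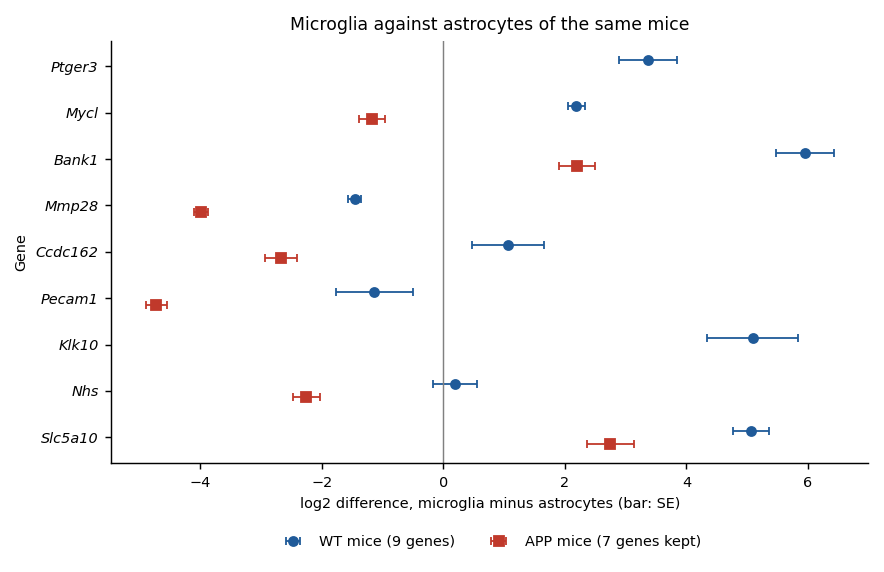
Log2 difference between microglia and astrocytes (horizontal axis, microglia minus astrocytes, bars are SE) of each gene (vertical axis) in WT mice (circles) and APP mice (squares). In WT mice the values run from -1.46 to 5.95, and in APP mice only Bank1 and Slc5a10 of the 7 genes kept lie to the right of 0.

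Per length of exonic sequence, as reads scaled to length and library (RPKM) on a scale common to both cell types, Bank1 ranked first in WT microglia at 11.4 ± 2.10 (SD, n = 4). Pecam1 (6.72 ± 1.07) and Mycl (5.25 ± 0.618) came next, then Slc5a10 (3.51 ± 0.396) and Mmp28 (3.42 ± 0.302), which did not differ beyond their spread. Klk10 (1.54 ± 0.473) and Ccdc162 (1.18 ± 0.245) had spreads that overlapped, followed by Ptger3 (0.720 ± 0.213) and Nhs (0.440 ± 0.169). Bank1 was above 72.4% of the genes tested in microglia and Nhs above 9.38%, with the others between them. Only Bank1, Pecam1 (above 57.9%) and Mycl (above 51.1%) were past the middle of the genes tested. In APP microglia the 9 genes ran from 0.0794 RPKM for Ptger3 to 1.68 RPKM for Bank1.

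The order of the 4 groups differed by gene. Ptger3 was highest in WT microglia, and its RPKM of 0.0794 ± 0.0184 in APP microglia was within the spread of WT (0.0622 ± 0.0472) and APP astrocytes (0.0945 ± 0.0563). Nhs was at 0.440 ± 0.169 RPKM in WT microglia, 0.375 ± 0.0960 in WT astrocytes and 0.478 ± 0.122 in APP astrocytes, which overlap, and APP microglia stood alone below them at 0.104 ± 0.0185. For Pecam1 both astrocyte groups (16.2 ± 13.4 and 31.5 ± 6.02) had higher means than WT microglia, and APP microglia were lowest at 1.24 ± 0.248.

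Some reads may belong to neighbours on the opposite strand, with the use of strand in counting not given in the sources used here. Slc5a10 shares 393 of its 2365 exonic bases with Fam83g and 4 with Grap (GENCODE). Fam83g fell by 2.08 in microglia (SE 0.21, adjusted p = 1.34e-05) and Grap by 1.54 (SE 0.10, adjusted p = 5.36e-07). Whether reads of Fam83g entered the count of Slc5a10 cannot be told without the strand setting. Mmp28 shares 466 of 3874 exonic bases with 1700020L24Rik, which fell by 1.69 (SE 0.32, adjusted p = 0.00161). Ccdc162 shares 63 of 10197 with Gm17196, which was not counted. Ptger3, Mycl, Bank1, Pecam1, Klk10 and Nhs share no exonic base with another gene of that annotation.

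The pathways around the genes were read from 10 lists of genes grouped by function. Over all genes tested in microglia, 19.1% rose and 19.2% fell. Without WT replicate 1, the only female WT mouse, the microglia contrast rests on the males, with a lone APP library. For a call lost in that fit, the weight of the left-out library and the lower precision cannot be told apart. In the prostaglandin E2 list, 10 of 12 genes were tested in microglia, 3 rose and 3 fell, with a median of 0.04 (all genes, 0.01), and 4 of the 6 calls were kept without WT replicate 1. While the EP3 gene Ptger3 fell, the EP4 receptor gene Ptger4 rose from 16 to 67.8 CPM, a log2 change of 2.05 (SE 0.20, adjusted p = 1.19e-05). The inducible cyclooxygenase gene Ptgs2 rose by 2.71 (SE 0.30, adjusted p = 3.25e-05), and the constitutive Ptgs1, at 833 CPM in WT, fell by 0.84 (SE 0.12, adjusted p = 0.000183). The exporter gene Abcc4 fell by 1.16 (SE 0.14, adjusted p = 4.97e-05). Ptger1 (EP1) differed by -0.06 (adjusted p = 0.615), and Ptger2 (EP2) was below the filter at 0.139 and 0.355 CPM in WT and APP.

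In the MYC network list, 4 of 11 tested genes rose and 3 fell, with a median of 0.26. Myc itself, at a mean of 57.3 CPM in WT and 78.8 CPM in APP, rose by 0.44 (SE 0.08, adjusted p = 0.000938), opposite to Mycl. Mxd1, which competes for MAX, fell by 0.50 (SE 0.09, adjusted p = 0.000739), and Mnt, another MAX partner that opposes MYC, rose by 0.38 (SE 0.07, adjusted p = 0.00124). Mlx rose by 0.48 (adjusted p = 0.0358), a call lost without WT replicate 1 (adjusted p = 0.594). Mycn was below the filter. Without WT replicate 1, 3 of the 7 calls were kept.

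In the list of BANK1 partners, 8 of 12 tested genes fell and 1 rose, with a median of -0.38. The IP3 receptor genes Itpr3 (-0.97, SE 0.11, adjusted p = 4.97e-05) and Itpr2 (-0.67, SE 0.08, adjusted p = 5.27e-05) fell, as did the kinase gene Syk (-0.60, SE 0.08, adjusted p = 9.77e-05). Fyn, a kinase of the LYN family, rose from 16 to 46.8 CPM (1.57, SE 0.09, adjusted p = 2.56e-07). Without WT replicate 1, 6 of the 9 calls were kept. Among partners of PECAM1 and other inhibitory receptors, 5 of 15 tested genes rose and 6 fell, with a median of -0.00, and 9 of the 11 calls were kept without that library. Siglece fell by 2.16 (SE 0.17, adjusted p = 2.52e-06) and Clec12a by 1.43 (SE 0.24, adjusted p = 0.000661). Lilrb4a rose by 2.32 (SE 0.17, adjusted p = 1.20e-06) and Cd72 by 1.92 (SE 0.17, adjusted p = 4.81e-06).

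Of the metalloproteinases and their TIMP inhibitors, 2 of 14 tested genes rose and 2 fell, with a median of -0.00, and 3 of the 4 calls were kept without WT replicate 1. Mmp12 rose from 2.07 to 10.6 CPM (2.22, SE 0.27, adjusted p = 5.94e-05) and Timp2 from 502 to 1004 CPM (0.99, SE 0.10, adjusted p = 1.47e-05). Mmp15 fell by 1.13 (SE 0.21, adjusted p = 0.00151). Mmp11 fell by 1.19 (SE 0.29, adjusted p = 0.00766), and was not called without WT replicate 1 (adjusted p = 0.0875). Timp3 and Timp4 were not called, at 0.60 (adjusted p = 0.355) and -0.05 (adjusted p = 0.958), and Timp1 was below the filter. Of 12 other kallikrein genes only 2 were tested, and both fell: Klk9 from 7.92 to 1.77 CPM (-2.24, SE 0.27, adjusted p = 5.93e-05) and Klk8 from 41.7 to 26.2 CPM (-0.59, SE 0.15, adjusted p = 0.00848). The other 10 kallikrein genes, Klk1, Klk4 to Klk7 and Klk11 to Klk15, had group means of at most 0.233 CPM in microglia.

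In the list of the NHS family and the actin-regulating WAVE complex, 2 of 13 tested genes rose and 4 fell, with a median of 0.04, and 3 of the 6 calls were kept without WT replicate 1. The Nhs relative Nhsl2 fell from 84.1 to 21.6 CPM (-2.0, SE 0.12, adjusted p = 2.56e-07), while Nhsl1 differed by 0.04 (adjusted p = 0.967). The complex member Abi3 fell by 0.43 (SE 0.09, adjusted p = 0.00316) and Abi2 rose by 0.50 (SE 0.09, adjusted p = 0.00104). Brk1 rose by 0.41 (adjusted p = 0.0144), a call lost without WT replicate 1 (adjusted p = 0.420). Of the other SLC5 transporter genes 3 of 12 were tested and 1 fell, Slc5a3 (-0.62, SE 0.20, adjusted p = 0.0288), not called without WT replicate 1 (adjusted p = 0.0673). Slc5a5 (-1.24, adjusted p = 0.0576) and Slc5a6 (-0.01, adjusted p = 0.968) were not called. The other 9 SLC5 genes listed were below the filter, the highest of them Slc5a11 at 0.794 CPM in WT.

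The state of the cells was read from 22 homeostatic and 22 disease-associated genes. Of the homeostatic genes 17 fell and the other 5 were not called, with a median of -0.50, and 11 of the 17 calls were kept without WT replicate 1. The largest of these falls were in Ecscr (-2.11, SE 0.17, adjusted p = 2.55e-06) and Crybb1 (-1.93, SE 0.09, adjusted p = 4.18e-08). Tmem119 and P2ry12, which mark resting microglia, fell by 1.47 and 1.12. All 22 disease-associated genes rose, with a median of 3.18, and all 22 calls were kept without WT replicate 1. Gpnmb rose from 0.775 to 733 CPM and Cst7 from 4.24 to 1132 CPM. Itgax rose from 26.9 to 1541 CPM and Spp1 from 7.93 to 852 CPM.

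In astrocytes 12.1% of all genes were called higher and 13.5% lower, 3836 in all, but only 34 were called without WT replicate 1. That fit rests on the males, with a lone APP library. The homeostatic list had 14 of 22 genes called higher and 3 lower, and 3 calls in all without WT replicate 1. The disease-associated list had 13 of 22 called higher and 2 lower, and 8 calls in all without it. The microglial marker sum in these libraries was 112 to 132 CPM in WT and 218 to 280.4 CPM in APP, and its part in the calls was not tested. The prostaglandin E2 list had 5 of 11 called higher and 2 lower, and the MYC list 2 of 12 lower. By edgeR neither had a call left without WT replicate 1.

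**Figure D5:**
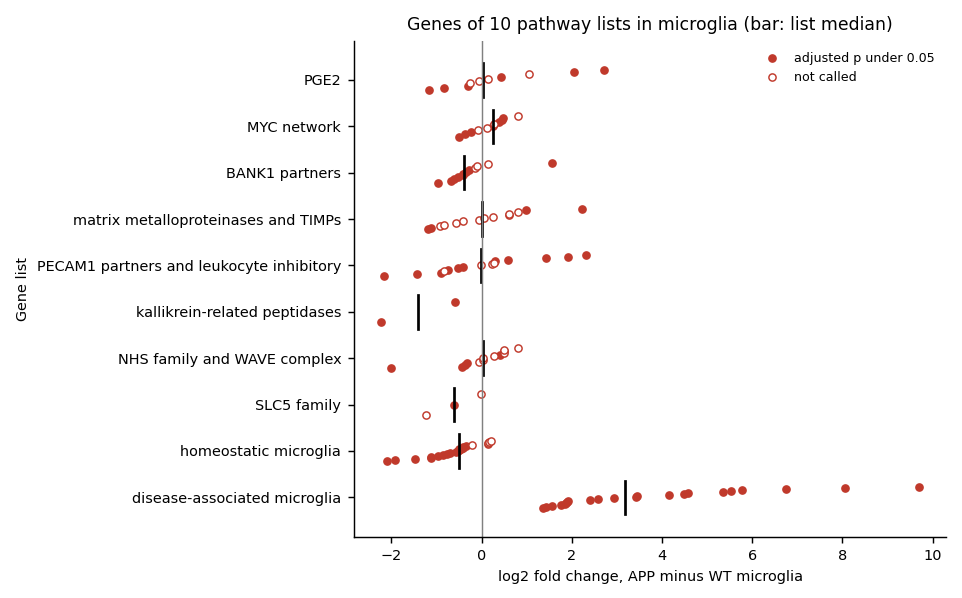
Log2 fold change of APP against WT microglia (horizontal axis) of each tested gene of 10 lists (vertical axis), filled where called at an adjusted p under 0.05, with a black bar at the list's median. The prostaglandin, MYC, metalloproteinase and inhibitory receptor lists hold genes called on both sides of 0, while all 22 disease-associated genes lie above 0 and the homeostatic genes that were called all lie below it.

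For each of the 9 genes the 3 genes most alike in pattern were sought by Pearson r of log2 CPM over all 18 libraries, among 12756 genes that averaged 1 CPM or more in microglia. The points share the difference between cell types and the fall in APP microglia, so r is high throughout and is a description. Mmp28 was most like Setbp1 (0.988), then Tmem44 and Plxna1. Slc5a10 was most like Pld1 (0.983), then Exosc10 and Zfp456. Bank1 was most like Sox4 (0.980), then Plxna4 and Synj1. Pecam1 was most like Trim16 (0.978), then Lsr and Thsd1.

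Mycl was most like Rtn1 (0.962), then Prkca and Bcl9l. Klk10 was most like Fam110a (0.954), followed by Fam83g (0.951), the gene that overlaps Slc5a10, and Cep68. Ptger3 was most like Ahctf1 (0.951), then Ggta1 and Ceacam1. Nhs was most like Tjp1 (0.920), then Rprd1b and Lifr. Ccdc162 had the loosest match, Ttc9 at 0.899, then Adamtsl2 and Iqgap2. All 27 of these genes were called lower in APP microglia, by 0.33 (Ahctf1) to 2.31 (Tmem44) on the log2 scale, which follows from a likeness that counts the fall itself.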

How the data were processed

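The deposited tables hold whole read counts of 24421 gene symbols, 1 table per cell type, and log2 values that the authors normalized. Per the submitters' processing notes, limma 3.46.0, edgeR 3.32.1, STAR 2.7.3a, FastQC 0.11.8, SAMtools 1.9 and Trimmomatic 0.39 were used with mm10. The sources used here name no counting tool, annotation or strand setting. Per the file headers and names, outliers had been left out.

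Counts were fitted per cell type, and jointly between cell types, with edgeR 4.0.16 (R 4.3.3): filterByExpr (minimum count 10, total 15), TMM, sex as covariate, quasi-likelihood F-test, Benjamini-Hochberg adjustment over all genes kept, called under 0.05. CPM use the TMM library sizes of each fit. The fits were tested on simulated data. DESeq2 1.42.0 and limma 3.58.1, other filters, left-out libraries, sex subsets and replicate blocks were alternatives. Same-numbered microglia and astrocyte libraries come from the same mouse (r 0.0684 to 0.401, 7 of 9 matching their own mouse best).

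The 9 genes and all lists were chosen with earlier results of these data known. The text names the 9 genes, the next 3, their relatives, up to 4 called genes with at least 1 CPM per list, the 3 genes most alike, and overlapping genes. Lengths come from GENCODE vM21, positions and promoters from RefSeq GRCm38.p6. The intervals of 0 counts cover counting error only.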

Additional observations from a re-analysis of the deposited data

Results flagged for a closer look

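In 36 groups of 4 or 5 libraries, 1 for each gene and group, 3 held a library far from the others by Dixon's criterion, where chance alone gives about 1 in 20. Ptger3 in APP astrocyte replicate 3 was at 1.19 CPM, against 0.299 to 0.531 CPM in the other 4. Mycl in WT astrocyte replicate 4 was at 4.47 CPM, against 5.15 to 5.27 CPM in the other 3. Klk10 in WT astrocyte replicate 2 was at 0.201 CPM, 4 reads, against 0 reads in the other 3. Any read beside 3 libraries at 0 gives this flag, so the rate of 1 in 20 does not hold for Klk10. None of the 3 was in microglia.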

How the results depend on the processing

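Of 186 values of the 9 genes in microglia under the alternatives, 169 moved by less than the spread between mice, 17 moved further and 0 changed sign. The choice of the genes by their fall in these libraries favours a kept sign. With the endothelial level as a covariate the median of the 9 genes was -1.92. Klk10 was then at -1.14, Ccdc162 at -1.32 and Nhs at -1.68, and the other 6 between -2.62 and -1.87. That level did not overlap between the genotypes in microglia, mostly through Flt1, so the covariate and the genotype cannot be told apart. The genes called in microglia, 5022, were then 705, and 2112 in males alone and 2330 without WT replicates 1 and 4. Leaving out 1 library gave 2641 to 5085, the lowest without WT replicate 1.

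In astrocytes 0 of the 9 genes were called by edgeR, 3 by DESeq2 and 3 in females alone. Leaving out 1 library gave 0 to 2, and limma on the deposited log2 values gave 2. With the replicate number as a replicate block 2 were called, Bank1 (adjusted p = 0.0462) and Ccdc162 (adjusted p = 0.0276). Same-numbered WT and APP libraries share only a number (r -0.345 to 0.0498, 0 of 8 matching best). Over all genes, 3836 astrocyte calls became 0 in males alone, 142 without WT replicates 1 and 4, 1907 with the block and 905 with the endothelial covariate. Leaving out 1 library gave 34 (without WT replicate 1) to 4217. The causes were not tested. Signs turned for Ptger3 in astrocytes without WT replicates 1 and 4 (-0.24). They turned for Nhs in astrocytes in males alone (-0.078) and without WT replicates 1 and 4 (-0.20), and leaving out 1 library gave -0.091 (WT replicate 1) to 0.97 (APP replicate 1). For Nhs between WT cell types leaving out 1 library gave -0.16 (WT replicate 1) to 0.53 (WT replicate 2). WT replicate 1 and APP replicate 1 are the lone mice of their sex in a group, so without them a lone library is taken to vary like the others.

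Between cell types the same genes passed the threshold with the mouse as a replicate block, 6 in WT and 7 in APP mice. The microglia libraries chose the genes, so nothing is read from these counts. Over all genes kept, 39.3% were called higher and 40.6% lower in microglia in WT mice, and 40.8% and 43.8% in APP mice. The 84 list genes called in microglia were 63 without WT replicate 1. Ptger3, Klk10 and Nhs rest on 3 to 16 reads a library in APP microglia, which limits their precision.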
